A study of Equus caballus with 15 samples.

Results

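The RAF-MEK-ERK route carries signals from receptor tyrosine kinases to the nucleus. RAF kinases phosphorylate the MEK kinases, encoded by MAP2K1 and MAP2K2, and these phosphorylate the ERK kinases, among them the product of MAPK3. Active ERK raises transcription of the ETS factors of the PEA3 type, ETV1, ETV4 and ETV5, and of feedback inhibitors such as DUSP6 and the Sprouty genes, so that the transcripts of those genes are widely used as a readout of the route. In skeletal muscle the same route is engaged by growth factors, by loading and by signals from the motor nerve, and in mice ETV5 is needed for the expression of endplate genes in the nuclei beneath the nerve ending. RNA counts measure transcripts, and kinase activity or phosphorylation was not measured here.

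The genes described are the 9 rows of the count table, of 30297 in all, that carry the symbols MAP2K1, MAP2K2, MAPK3, ETV1, ETV4, ETV5, DUSP6, SPRY2 and SPRY4. MAP2K1 and ETV4 were picked because their counts were lower in junction sections than in muscle, so their values in every comparison are given as a description with no test, the tendon comparisons included, because those reuse the same muscle or junction libraries. The other 7 were taken as genes of the same route and were tested. Each of the 9 passed the filter on low counts. Per the deposited table, with the EquCab3.0 build named in the submitters' processing notes, MAP2K1 (NCBI gene 100065996) lies on chromosome 1, SPRY4 on 14, ETV1 on 4, MAP2K2 on 7, ETV4 (NCBI gene 100065121) on 11, MAPK3 on 13, SPRY2 on 17, ETV5 on 19 and DUSP6 on 28, and start and end positions were not used here.

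The tissue came from the superficial digital flexor of the front limb of 5 euthanized horses aged 5 to 7 years, 4 mares and 1 gelding, numbered 14, 16, 17, 18 and 20. Each horse gave a frozen punch of muscle with tendon attached, 4 mm across, from which about 200 µm of cryosections was taken for each of 3 samples. They are the myotendinous junction (MTJ), which by design also holds muscle and tendon, the adjacent muscle, and the tendon, with 5 libraries each. The labels name no treatment, and a training state in the labels was not compared because for horse 14 it differs between the muscle library and the MTJ and tendon libraries. Total counts ran from 17160894 to 18659381 in MTJ libraries, from 17115884 to 19295339 in muscle libraries and from 15304218 to 17048957 in tendon libraries. Values are CPM, counts scaled to a common total with TMM factors, and "called" means an adjusted p below 0.05 in edgeR's quasi-likelihood test, which had the horse as a block and Benjamini-Hochberg adjustment over 15343 genes. Levels in CPM are followed by their SD and log2 changes by their SE. The median level of the study's own muscle reference genes in the MTJ sections was 77.6 ± 5.66% of that in the same horse's muscle (SD, n = 5). The tendon sections had it at 13.7% for horse 14, 17.6% for horse 16 and 11.7% for horse 17, but at 0.332% for horse 18 and 2.57% for horse 20. The 3 tendon libraries of horses 14, 16 and 17 thus held far more muscle transcripts than the other two, and calls on the 7 tested genes that change without them are given with the result. In sections of mixed tissue, fewer cells of a type and less RNA per cell cannot be told apart.

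MAP2K1, the kinase that gives the signal its step from RAF to ERK, had a far higher mean in muscle than in the other sections. In horses 14, 16, 17, 18 and 20, in that order here and below, its MTJ levels were 12.3, 16.2, 17.8, 9.76 and 17.5 CPM. The muscle sections of the same horses had 113, 264, 295, 21.7 and 57.3 CPM. Their tendon sections had 28.4, 22.3, 15.3, 10.9 and 10.4 CPM. Every MTJ library was below every muscle library, although the muscle section of horse 18 came close, and MTJ and tendon values overlapped. Muscle and tendon overlapped too, as the muscle of horse 18 was below the tendon of horses 14 and 16. MAP2K1 averaged 14.7 ± 3.55 CPM in the MTJ, 150.3 ± 123 CPM in muscle and 17.5 ± 7.75 CPM in tendon (SD, n = 5 each). The log2 change was -2.95 ± 0.53 for MTJ over muscle (SE), the second lowest of the 15343 genes, and it lay between -3.29 and -2.57 when any 1 horse was left out. Within horses the MTJ level was 9.23-fold, 16.3-fold, 16.5-fold, 2.22-fold and 3.28-fold lower than in muscle.

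In the same MTJ sections the muscle reference genes stood at 68.7 to 83.4% of the muscle level. The authors' deposited table gives each horse's MTJ value relative to a level predicted from its muscle and tendon. In the authors' deposited table MAP2K1 has log2 values of -2.95, -3.78, -3.67, -0.78 and -1.42, and their mean of -2.52 is the lowest of the 7613 genes listed. The authors' FDR for MAP2K1 is 0.999958. DUSP6, with a mean of only -0.23, has the same FDR, and MAP2K2, with a mean of 0.0099, has 0.676. The high FDR of MAP2K1 is thus not read here as evidence that it did not fall. Muscle over tendon gave a log2 change of 2.77 ± 0.52 (SE), or 2.53 without the tendon libraries of horses 14, 16 and 17. For MTJ over tendon it was -0.17 ± 0.49, with a 95% interval of -1.29 to 0.94, and 0.11 when horse 14 was left out.

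MAP2K2, the second MEK kinase, showed no such excess in muscle. Its levels were 13.6, 10.8, 11.6, 13.5 and 10.7 CPM in the MTJ. In muscle they were 13.7, 11.9, 14.0, 13.7 and 13.7 CPM. Tendon sections held 8.24, 10.02, 10.7, 9.84 and 9.11 CPM. Muscle libraries lay above all tendon libraries, and the MTJ libraries overlapped with muscle and began where the tendon libraries ended. For MTJ over muscle the log2 change was -0.16 ± 0.12 with a 95% interval of -0.41 to 0.10 (SE, adjusted p = 0.506, edgeR), lower in 5 of 5 horses. Muscle over tendon gave 0.48 ± 0.12 (adjusted p = 0.00233, edgeR) and MTJ over tendon 0.33 ± 0.12 (adjusted p = 0.0248, edgeR). These small differences rest on the TMM factors. Scaled to library totals alone, MAP2K2 had log2 changes of 0.07, -0.75 and -0.68 for MTJ over muscle, muscle over tendon and MTJ over tendon, while the median of all genes moved to 0.22, -1.36 and -1.11. Relative to that median MAP2K2 was at -0.15, 0.61 and 0.43. The MTJ over tendon call was also lost without horse 14 (adjusted p = 0.125, edgeR) or horse 18 (0.0890), without the tendon libraries of horses 14, 16 and 17 (0.0640), with only these 2 tissues in the fit (0.0890) and with no filter on low counts (0.0635). Over the alternatives that kept the sign the adjusted p ran from 0.0197 to 0.125 (edgeR and DESeq2).

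Set against each other per kilobase of the deposited gene length, which the file headers do not explain, MAP2K1 stood to MAP2K2 at a ratio of 0.926, 1.55, 1.58, 0.748 and 1.69 in the MTJ. In muscle the ratio was 8.52, 23.0, 21.8, 1.63 and 4.31, and in tendon 3.55, 2.29, 1.48, 1.14 and 1.18. The ratio does not depend on library scaling, and each MTJ section had a lower ratio than the muscle and, in horses 14, 16 and 18, also than the tendon of the same horse. The program that counted reads is not given in the sources used here, so reads shared by close copies of a gene may have been split between them.

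MAPK3, which encodes ERK1, was a tendon-rich transcript. It had 11.4, 15.2, 15.4, 14.3 and 13.2 CPM in the MTJ and 7.65, 11.9, 12.9, 9.79 and 13.9 CPM in muscle. Tendon held 32.2, 36.8, 47.6, 25.3 and 37.7 CPM. All tendon libraries were above all others, and MTJ and muscle values overlapped. The log2 change was -1.68 ± 0.13 for muscle over tendon (SE, adjusted p = 1.52e-07, edgeR), -1.35 ± 0.13 for MTJ over tendon (1.53e-06), and 0.33 ± 0.13 for MTJ over muscle (0.180).

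**Figure D1:**
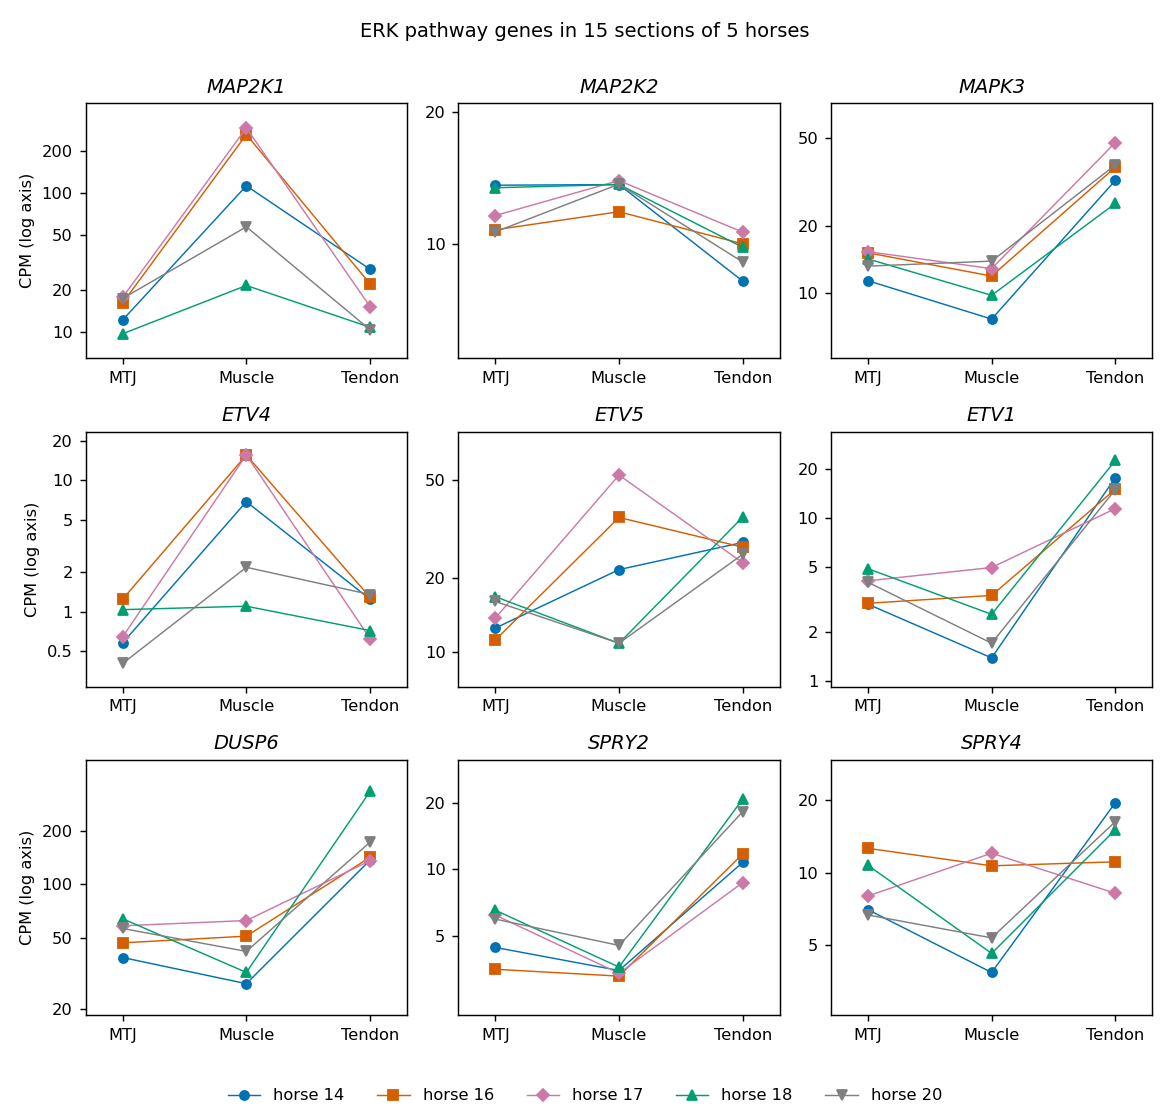
Levels of the 9 genes in CPM (log axes, a scale for each panel) in MTJ, muscle and tendon sections; each symbol is 1 library and a line joins the sections of a horse. MAP2K1 and ETV4 peak in muscle, most in horses 14, 16 and 17, whereas MAPK3, ETV1, DUSP6 and SPRY2 are highest in tendon.

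ETV4, an ETS factor whose transcription ERK raises, had the profile of MAP2K1. Its MTJ libraries stood at 0.580, 1.25, 0.646, 1.04 and 0.405 CPM. Its muscle libraries stood at 6.88, 15.6, 15.6, 1.10 and 2.18 CPM. Its tendon libraries stood at 1.25, 1.29, 0.627, 0.721 and 1.35 CPM. The muscle sections of horses 14, 16 and 17 were far above everything else, the muscle of horse 18 overlapped the MTJ values, and MTJ and tendon overlapped. These values rest on 6 to 18 reads per MTJ library, 15 to 203 per muscle library and 17 to 40 per tendon library. MTJ over muscle gave a log2 change of -3.07 ± 0.63 (SE), the lowest of all genes tested, with -3.68 to -2.56 when any 1 horse was left out and the MTJ lower in 5 of 5 horses. Within horses the MTJ level was 11.9-fold, 12.5-fold, 24.1-fold, 1.06-fold and 5.38-fold lower. In horse 18 the sign rests on 18 MTJ reads and 15 muscle reads and on the TMM factors. With library totals alone the MTJ of horse 18 was higher, at 0.965 CPM against 0.803 CPM in its muscle. Muscle over tendon gave 2.59 ± 0.59, or 1.44 without the tendon libraries of horses 14, 16 and 17, and MTJ over tendon gave -0.48 ± 0.64.

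ETV5 shared the excess in the muscle of horses 14, 16 and 17 and departed from ETV4 elsewhere. It had 12.5, 11.2, 13.7, 16.7 and 16.0 CPM in the MTJ. Muscle held 21.6, 35.2, 52.3, 10.8 and 10.8 CPM. Tendon held 27.8, 26.6, 23.0, 35.3 and 24.9 CPM. In muscle, horses 14, 16 and 17 were above every MTJ library and horses 18 and 20 below every MTJ library, and each tendon library was above each MTJ library. ETV5 was not called for MTJ over muscle (log2 change -0.77 ± 0.41, SE, 95% interval -1.70 to 0.16, adjusted p = 0.336, edgeR), being lower in the MTJ of 3 horses and higher in 2. For MTJ over tendon the log2 change was -0.97 ± 0.40 and the adjusted p of 0.0519 (edgeR) just missed the threshold, with the MTJ lower in 5 of 5 horses. It was called with DESeq2 (adjusted p = 0.0128), without the horse block (0.0266), with RLE factors (0.0464), with only these 2 tissues in the fit (0.000192), without horse 17 (0.0422) or 18 (0.0406), with no robust prior (0.0303) and with library totals alone (0.00128), within 0.000192 to 0.149 over all alternatives. Muscle over tendon gave -0.20 ± 0.40 (adjusted p = 0.666, edgeR), the sign turned without horse 18 (0.11) or horse 20 (0.0034), and it was called with library totals alone (-1.43, adjusted p = 0.00891), where the median of all genes was -1.36.

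ETV1, the PEA3-type factor with the lowest mean muscle level per kilobase, was tendon-rich. It had 2.97, 3.01, 4.13, 4.91 and 4.05 CPM in the MTJ and 1.39, 3.36, 4.99, 2.58 and 1.71 CPM in muscle. Tendon held 17.8, 15.1, 11.5, 22.6 and 14.997 CPM. The tendon libraries stood clear of the rest, and the MTJ range lay within that of muscle. The log2 change was -2.59 ± 0.29 for muscle over tendon (SE, adjusted p = 4.71e-06, edgeR), -2.12 ± 0.28 for MTJ over tendon (2.51e-05) and 0.47 ± 0.30 for MTJ over muscle (0.423). Per kilobase of the deposited length, the MTJ levels ran ETV5, ETV1, ETV4, at 3.28 ± 0.550, 0.688 ± 0.148 and 0.294 ± 0.131 CPM per kb (SD, n = 5), with no overlap between neighbours. In muscle the order was ETV5, ETV4, ETV1, at 6.12 ± 4.15, 3.10 ± 2.64 and 0.506 ± 0.260 CPM per kb, and each overlapped its neighbour. Tendon had the same order as the MTJ, at 6.44 ± 1.10, 2.96 ± 0.748 and 0.393 ± 0.130 CPM per kb, also without overlap.

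The feedback genes did not have the muscle profile of MAP2K1 and ETV4. DUSP6, the phosphatase that removes phosphate from ERK, had 38.7, 46.8, 58.4, 64.0 and 56.4 CPM in the MTJ and 27.6, 51.1, 62.5, 31.9 and 41.9 CPM in muscle. Tendon held 137, 142, 136, 332 and 172 CPM. The tendon values were above all others, that of horse 18 most, and MTJ and muscle overlapped. The log2 change was -2.05 ± 0.25 for muscle over tendon (SE, adjusted p = 1.96e-05, edgeR), -1.77 ± 0.25 for MTJ over tendon (7.34e-05) and 0.28 ± 0.24 for MTJ over muscle (0.567).

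SPRY2, a Sprouty inhibitor of receptor signalling upstream of ERK, had 4.42, 3.52, 6.20, 6.52 and 5.94 CPM in the MTJ. It had 3.48, 3.28, 3.38, 3.61 and 4.52 CPM in muscle and 10.7, 11.7, 8.70, 20.8 and 18.2 CPM in tendon. The tendon libraries did not overlap the others, and the MTJ value exceeded the muscle value in each of the 5 horses, although the ranges overlapped. The log2 change was -1.89 ± 0.20 for muscle over tendon (SE, adjusted p = 1.83e-06, edgeR) and -1.36 ± 0.19 for MTJ over tendon (3.69e-05). For MTJ over muscle it was 0.53 ± 0.20 (adjusted p = 0.151, edgeR).

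SPRY4, the other Sprouty gene, overlapped between all 3 tissues. It had 7.03, 12.6, 8.01, 10.7 and 6.69 CPM in the MTJ and 3.86, 10.7, 12.1, 4.64 and 5.37 CPM in muscle. Tendon held 19.5, 11.1, 8.22, 15.1 and 16.3 CPM. Horses 16 and 17 did not have their highest level in tendon. For muscle over tendon the log2 change was -1.01 ± 0.37 (SE, adjusted p = 0.0273, edgeR), and the call was lost without horse 14 (0.132), 18 (0.0813) or 20 (0.118), with only these 2 tissues in the fit (0.0772) and with no filter on low counts (0.0505), within 0.000228 to 0.132 over all alternatives. MTJ over tendon gave -0.69 ± 0.35 (adjusted p = 0.104, edgeR) and was called without the 3 muscle-rich tendon libraries (-1.02, adjusted p = 0.0118), without horse 17 (0.0440) and with library totals alone (0.00139), within 0.00139 to 0.304. MTJ over muscle gave 0.32 ± 0.37 (0.686).

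Counted together, none of the 7 tested genes was called between MTJ and muscle (0 of 7 by edgeR, with MAPK3 and SPRY2 higher at an unadjusted p under 0.05, and 0 by DESeq2), where 6.73% of all genes were called. Scaled to library totals alone, a setting that moves the median of all genes by 0.22, MAPK3 and SPRY2 were called higher (log2 0.56 and 0.76, adjusted p = 0.0159 and 0.0273, edgeR). Under that setting 15.4% of all genes were called higher. Between muscle and tendon 1 was higher and 5 were lower, against 73.1% of all genes called (34.5% higher and 38.6% lower), and between MTJ and tendon 1 was higher and 4 were lower, against 67.1% (32.7% higher and 34.4% lower). The totals called, 6 and 5 of 7, are near those for all genes, and the calls lean to lower levels against tendon; with 7 genes chosen with earlier results known, that lean was not tested. The median log2 change of the 7 was 0.32, -1.68 and -1.35 for MTJ over muscle, muscle over tendon and MTJ over tendon, beside -0.00, -0.13 and -0.10 over all genes.

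**Figure D2:**
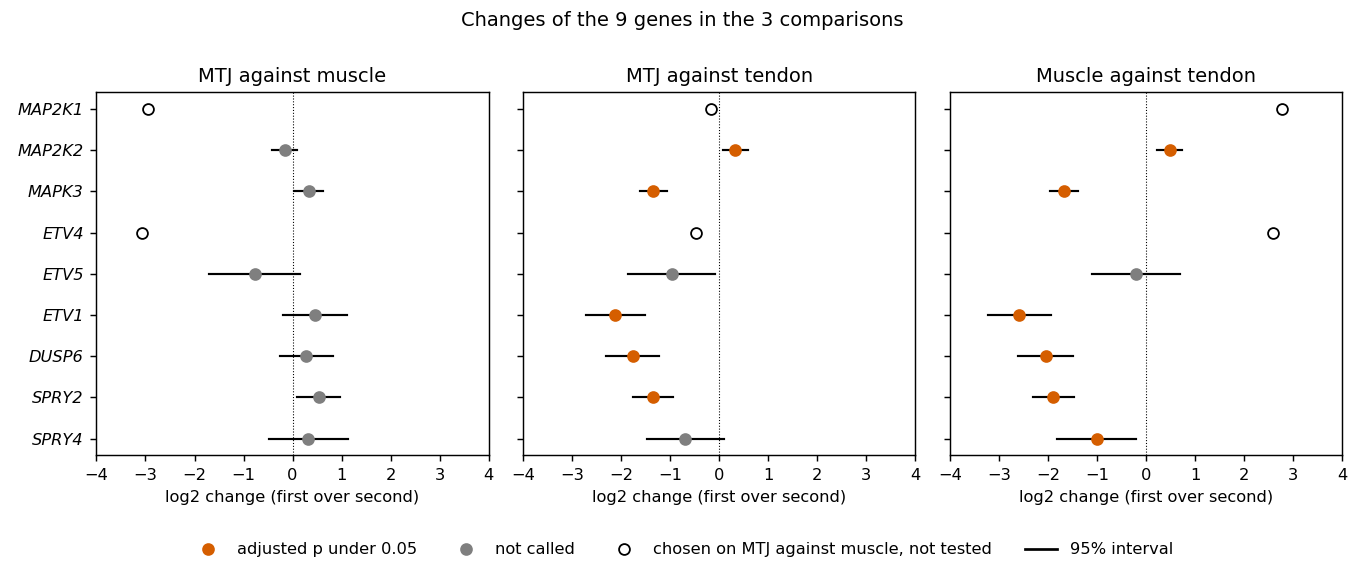
Log2 change of each gene for MTJ over muscle, MTJ over tendon and muscle over tendon, with 95% intervals for the 7 tested genes; open circles are MAP2K1 and ETV4, which were chosen on the first comparison and carry no test. In the first panel MAP2K1 and ETV4 lie at -2.95 and -3.07 while the interval of ETV5 spans 0.

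The muscle sections of the 5 horses differed in MAP2K1, ETV4 and ETV5 far more than in most genes. The ratio of the highest to the lowest library was 1.83 in the MTJ and 13.6 in muscle for MAP2K1, 3.08 and 14.1 for ETV4, and 1.501 and 4.83 for ETV5. Set beside 9718 genes with a mean of at least 5 CPM, the SD of log2 CPM over the muscle libraries exceeded that of 99.7% of genes for MAP2K1, 99.8% for ETV4 and 98.4% for ETV5. For MAP2K2 it exceeded that of 4.77%. MAP2K1 and ETV4 were picked on a change that uses these muscle values, so their places among the genes are a description. ETV4 has a mean under 5 CPM and is not itself in the set of 9718 genes. Its muscle libraries held 15 to 203 reads.

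The order of the horses in muscle was 17, 16, 14, 20, 18 from high to low for MAP2K1, ETV4 and ETV5 alike, an order that 134 of the 9718 genes shared. Near ties set parts of it. ETV4 had 15.58 and 15.56 CPM in horses 17 and 16, and ETV5 had 10.825 and 10.816 CPM in horses 20 and 18. With library totals alone the last places of ETV5 swapped, at 7.83 CPM in horse 20 and 7.87 CPM in horse 18. Horses 16 and 17 were the highest pair in muscle for 6 of the 9 genes (66.7%), against 15.7% of the 9718 genes. The 6 are ETV1, ETV5, DUSP6 and SPRY4, with MAP2K1 and ETV4, which were picked on a change that uses these muscle libraries. The share of 66.7% is thus partly set by that choice and is given as a description. In the MTJ no order was common to MAP2K1, ETV4 and ETV5. There the highest library was from horse 17 for MAP2K1, horse 16 for ETV4 and horse 18 for ETV5. The ETV4 order in the MTJ rests on 6 to 18 reads per library, with 17 in horse 16 and 18 in horse 18, and cannot be relied on. With 5 horses, age and sex cannot be told apart from the animal: horses 16 and 17, the highest in muscle, were the 5-year-old mares, while horses 14 and 18, both mares of 7 years, held 113 and 21.7 CPM of MAP2K1 and 6.88 and 1.10 CPM of ETV4 in muscle.

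Genes of the neuromuscular endplate, where the motor nerve meets the fibre, were listed as markers of a structure that only some sections may hold. CHRNE, the receptor subunit of the adult endplate, had 3.55, 4.26, 3.94, 3.18 and 1.22 CPM in the MTJ. It had 14.8, 39.7, 53.0, 4.86 and 12.1 CPM in muscle and 8.05, 5.90, 6.08, 5.64 and 3.69 CPM in tendon. Its muscle values ranked the horses as MAP2K1 did, and every MTJ library was below every muscle library. The log2 change of MTJ over muscle was -2.74 ± 0.47 (SE, adjusted p = 0.00570, edgeR). CHRNE was higher in the tendon than in the MTJ of each horse (MTJ over tendon -0.95 ± 0.45, adjusted p = 0.0850, edgeR). In horse 18 the tendon also exceeded the muscle, at 5.64 against 4.86 CPM. That tendon library had 0.157 CPM each of CHRNA1 and MUSK. Whether CHRNE counts follow the endplate content of a section was not tested.

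CHRNE was the only gene called of the 13 endplate genes tested between MTJ and muscle by edgeR, where 6.73% of all genes were called and 0.554% were called lower. At an unadjusted p under 0.05 and by DESeq2 3 were lower, and without the 3 muscle-rich tendon libraries CHRNE, ACHE and PRKAR1A were called lower, where 3.84% of all genes were. ACHE, the acetylcholinesterase that ends transmission, had 1.16, 10.1, 7.62, 0.693 and 3.38 CPM in the MTJ against 12.5, 25.7, 25.2, 2.94 and 4.91 CPM in muscle, and a log2 change of -1.62 ± 0.60 (adjusted p = 0.161, edgeR). The other receptor subunits did not pass the test, with -1.11 ± 0.71 for CHRNA1, -0.25 ± 0.20 for CHRNB1 and -0.34 ± 0.62 for CHRND. As for CHRNE, every MTJ library of CHRNA1 (33.7 to 90.8 CPM) was below every muscle library (92.5 to 175 CPM). The clustering genes MUSK, RAPSN, DOK7 and LRP4 had 0.54 ± 0.72, -0.18 ± 0.57, 0.19 ± 0.46 and 0.01 ± 0.22, and none passed the test. COLQ, the collagen tail of acetylcholinesterase, had -0.67 ± 0.42, PRKAR1A, a regulatory subunit of protein kinase A, -0.42 ± 0.15, UTRN, utrophin, 0.27 ± 0.14 and UFSP1, a protease, -0.08 ± 0.25. Besides CHRNE, the genes ACHE, CHRNA1, CHRNB1, RAPSN, COLQ and PRKAR1A were lower in the MTJ than in the muscle of each horse. MUSK was higher in the MTJ of each horse, and the others of the list went both ways.

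The summed endplate list ran from 730 to 849 CPM in the MTJ, from 821 to 1264 CPM in muscle and from 446 to 545 CPM in tendon. Horses 17 and 16 had the highest sums in muscle, at 1264 and 1082 CPM, and the largest contribution is from PRKAR1A, which other cells also express. LRTM1, also of this list, was removed by the filter on low counts and had no reads in the muscle of horse 20, and CHRND had none in the tendon of horse 18. Schwann cell markers, the glia along the nerve, summed to 84.0 to 191 CPM in the MTJ, 78.7 to 158 CPM in muscle and 212 to 333 CPM in tendon. Between MTJ and muscle 0 of 7 were called by edgeR, where 6.73% of all genes were called. At an unadjusted p under 0.05 2 were higher, and 1 was called by DESeq2. Whether the endplate content of the sections has a part in the MAP2K1, ETV4 and ETV5 values was not tested.

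By a rule on likeness, the 5 genes with a symbol and a mean of at least 5 CPM whose log2 CPM correlated best were taken for MAP2K1 and ETV4. Over the 15 libraries MAP2K1 was most like SYS1, a Golgi trafficking protein (Pearson r = 0.908 among 9086 genes), CHRNE (0.905), GPC4, a cell-surface glypican (0.875), THAP12 (0.868) and MAD2L2 (0.868). Over the 10 MTJ and muscle libraries these were CHRNE (0.938), GPC4 (0.927), KCNJ12, an inward rectifier potassium channel (0.922), UBR2, a ubiquitin ligase (0.919), and PGAM5, a mitochondrial phosphatase (0.917). CHRNE and GPC4 were on both lists. ETV4, whose mean is under 5 CPM and which the rule thus leaves out, had r = 0.935 with MAP2K1 over 15 libraries and 0.955 over 10, but both genes were picked for a low MTJ level relative to muscle, so part of this likeness comes from the choice. ETV5 had 0.468 and 0.811, in place 1678 and 88.

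For ETV4 the list over 15 libraries was MAP2K1 (0.935), CHRNE (0.924), PTN, the secreted growth factor pleiotrophin (0.866), SYS1 (0.826) and TPRA1 (0.812). Over 10 libraries it was CHRNE (0.965), MAP2K1 (0.955), GPC4 (0.930), PSTK, a kinase of selenocysteine synthesis (0.897), and GMNN, geminin (0.896). The libraries come from only 5 horses and share punches, so these coefficients describe the profiles and are given with no p.

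KCNJ12 stood at 19.3 to 38.7 CPM in the MTJ, and at 49.5, 83.2, 96.0, 31.0 and 36.7 CPM in muscle, the horse order of MAP2K1. PTN ran from 2.32 to 6.46 CPM in the MTJ, and muscle held 9.43, 23.6, 22.0, 3.83 and 8.41 CPM. GPC4 ran from 8.20 to 12.6 CPM in the MTJ, and muscle held 19.6, 23.3, 31.2, 14.5 and 13.3 CPM. Horses 16 and 17 were the highest pair in muscle for each, which follows in part from choosing them for likeness to MAP2K1 or ETV4 over these libraries. Of the 3, only GPC4 had no overlap between MTJ and muscle.

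**Figure D3:**
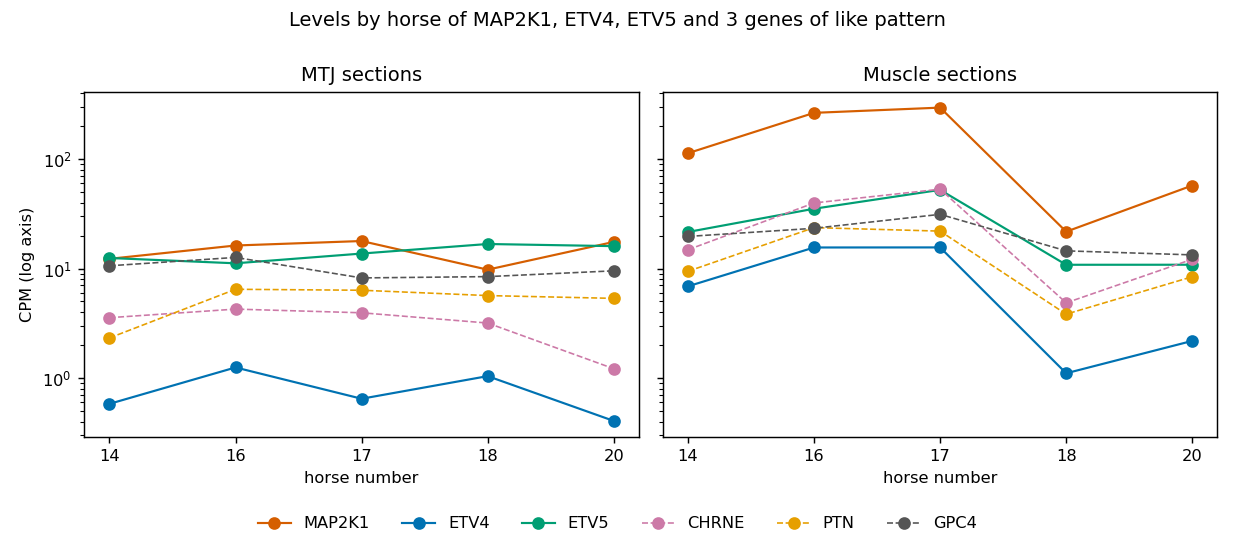
Levels in CPM (log axis) by horse of MAP2K1, ETV4, ETV5, CHRNE, PTN and GPC4 in MTJ sections and muscle sections; each point is 1 library. In muscle the lines share high values in horses 16 and 17, at 264 and 295 CPM for MAP2K1, and low values in horse 18. In the MTJ panel the lines run closer to level and differ in order, with MAP2K1 between 9.76 CPM in horse 18 and 17.8 CPM in horse 17.

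The rest of the cascade was listed to see whether other steps between receptor and ERK behaved like MAP2K1. Of 25 genes tested, among them the RAS and RAF genes, adaptors and scaffolds, the MTJ section had 1 higher and 0 lower relative to muscle (3 were lower at an unadjusted p under 0.05, and 0 by DESeq2), with 6.17% of all genes called higher and 0.554% lower. The gene that rose was IQGAP1, a scaffold for the MEK and ERK kinases, with an MTJ mean of 86.0 ± 19.3 CPM and a muscle mean of 52.2 ± 6.49 CPM (log2 change 0.70 ± 0.13, adjusted p = 0.00470, edgeR). Between muscle and tendon 11 were higher and 10 lower, beside 34.5% and 38.6% of all genes, and between MTJ and tendon 11 were higher and 8 lower, beside 32.7% and 34.4%. Without the 3 muscle-rich tendon libraries the counts were 10 and 8, beside 31.3% and 32.5% of all genes, and 8 and 8, beside 29.7% and 27%. HRAS was higher in muscle than in tendon (log2 change 2.01 ± 0.22), while RRAS (-2.55 ± 0.19), IQGAP1 (-2.33 ± 0.13) and the adaptor FRS3 (-1.68 ± 0.46) were lower. In the MTJ against tendon, HRAS had 1.59 ± 0.22, the scaffold KSR1 1.40 ± 0.21, RRAS -1.83 ± 0.18 and IQGAP1 -1.63 ± 0.13. The median of the list was 0.07, 0.13 and 0.04 for MTJ over muscle, muscle over tendon and MTJ over tendon. Scaled to library totals alone, 7 were higher and 0 lower for MTJ over muscle, beside 15.4% and 0.0782% of all genes. In each comparison with tendon 1 was higher and 19 were lower. The shares of all genes were then 12.4% and 74.1% for muscle over tendon, and 12.8% and 70.5% for MTJ over tendon. The list medians relative to that of all genes were 0.07, 0.26 and 0.14.

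Other feedback and target genes of ERK that passed the test between MTJ and muscle were all higher in the MTJ, as were 947 of the 1032 genes called in the whole table. Of 14 tested, the MTJ had 4 higher and 0 lower relative to muscle (0 lower at an unadjusted p under 0.05 and by DESeq2). Of all genes 6.17% were called higher and 0.554% lower, so 0 lower of 14 is near the share of all genes. The median log2 change of the 14 was 0.32. EPHA4, an ephrin receptor, averaged 5.16 ± 2.31 CPM in the MTJ, 0.652 ± 0.410 CPM in muscle and 3.93 ± 1.25 CPM in tendon. MTJ over muscle gave a log2 change of 2.94 ± 0.43 (adjusted p = 0.00108, edgeR). EMP1, a membrane protein, rose by 1.23 ± 0.12, CCND1, cyclin D1, by 1.15 ± 0.24, and SPRED1, an inhibitor of RAS signalling, by 0.90 ± 0.16. Without the 3 muscle-rich tendon libraries MYC joined them, with 7.63% of all genes higher. Against tendon 2 were higher and 9 lower in muscle, beside 34.5% and 38.6% of all genes, and 2 were higher and 8 lower in the MTJ, beside 32.7% and 34.4%. In muscle over tendon CCND1 changed by -3.48 ± 0.25, EMP1 by -3.10 ± 0.13 and SPRED1 by -2.66 ± 0.16, and SPRY3, another Sprouty gene, by 2.78 ± 0.55. In MTJ over tendon these were -2.32 ± 0.23, -1.86 ± 0.12 and -1.76 ± 0.15, and 3.08 ± 0.55 for SPRY3.

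Receptor kinases upstream of the route were also higher in the MTJ than in muscle where they passed the test, in 6 of 21 with 0 lower (1 lower at an unadjusted p under 0.05 and 1 by DESeq2), beside 6.17% of all genes higher and 0.554% lower. Without the 3 muscle-rich tendon libraries 7 were higher and FLT1, a receptor of vascular endothelial growth factor, was lower, beside 7.63% and 3.84%. The fibroblast growth factor receptor FGFR1 averaged 29.0 ± 6.67 CPM in the MTJ and 11.01 ± 1.502 CPM in muscle (log2 change 1.38 ± 0.11, adjusted p = 2.74e-05, edgeR). NTRK2, a neurotrophin receptor, rose by 1.37 ± 0.23, DDR2, a collagen receptor, by 1.09 ± 0.18 and AXL by 1.05 ± 0.19. Against tendon 4 were higher and 13 lower in muscle, beside 34.5% and 38.6% of all genes, with NTRK2 at -3.61 ± 0.24, FGFR1 at -3.38 ± 0.12, DDR2 at -3.19 ± 0.18 and AXL at -2.99 ± 0.20. The MTJ against tendon had 4 higher and 12 lower, beside 32.7% and 34.4%, with FGFR4 at 3.05 ± 0.42, ERBB4 at 2.66 ± 0.48, NTRK2 at -2.24 ± 0.23 and DDR2 at -2.09 ± 0.17. The list medians were 0.16, -1.42 and -0.94 for MTJ over muscle, muscle over tendon and MTJ over tendon.

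Tendon cell markers moved with these MTJ values. Of 8 tenocyte markers tested the MTJ had 6 higher and 0 lower relative to muscle, beside 6.17% and 0.554% of all genes. The list of 9 summed to 560 to 2585 CPM in the MTJ, 137 to 240 CPM in muscle and 9476 to 17029 CPM in tendon. SCX, a defining tenocyte factor, was removed by the filter on low counts. Without the 3 muscle-rich tendon libraries 5 tenocyte markers were higher, beside 7.63% of all genes. Of 8 macrophage markers 4 were higher in the MTJ, or 6 without those libraries, beside 6.17% and 7.63% of all genes. Their sums were 125 to 226 CPM in the MTJ, 45.4 to 135 CPM in muscle and 212 to 393 CPM in tendon. The part of these cells in the changes of IQGAP1, the ERK targets and the receptors was not tested. The 10 muscle fibre genes, which summed to 121372 to 164746 CPM in the MTJ, 175823 to 211440 CPM in muscle and 297 to 32655 CPM in tendon, had 0 calls between MTJ and muscle (0 also at an unadjusted p under 0.05 and by DESeq2), with a median log2 change of -0.37. Endothelial markers had 0 of 8 called there as well (0 unadjusted, 0 by DESeq2), and of the satellite cell markers 2 of 5 passed the filter and 0 were called (0 unadjusted, 0 by DESeq2), while PAX7 did not pass it. For MTJ over muscle 6.17% of all genes were called higher and 0.554% lower. In lists this short, 0 calls are thus near the share of all genes and are no result about these markers.

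**Figure D4:**
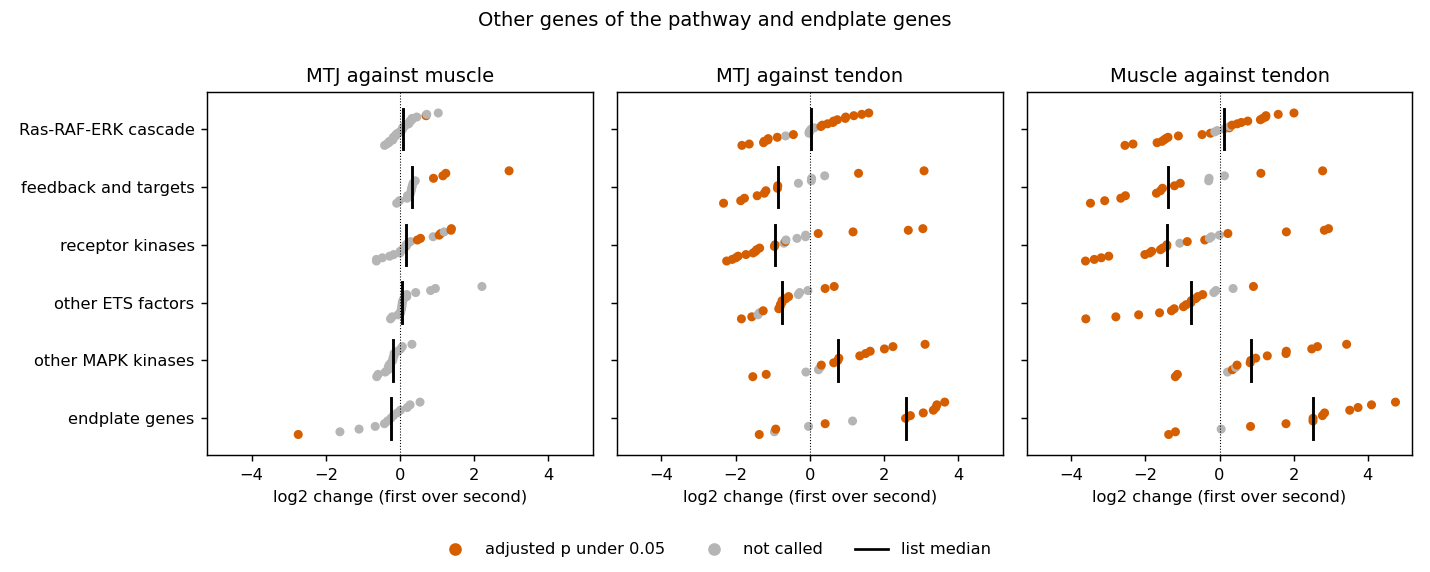
Log2 change of each tested gene in 5 lists of the pathway and in the endplate list for MTJ over muscle, MTJ over tendon and muscle over tendon; black bars are list medians. In the first panel the gene at -2.74 in the endplate row is CHRNE. None of the 5 pathway lists has a gene called lower there, which is near the share of all genes, 0.554%.

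The list of other ETS factors and the list of other MAP kinase genes gave no call between MTJ and muscle by edgeR with all libraries and TMM factors. Of all genes 6.73% were called there. Without the 3 muscle-rich tendon libraries MAP2K6 was called lower in the MTJ, beside 3.84% of all genes. With library totals alone ELF4 and GABPB1 were called higher, beside 15.4% of all genes. Of 17 genes tested in the ETS list outside the PEA3 type 0 were called (1 higher at an unadjusted p under 0.05, 0 by DESeq2), with a median of 0.06. That list includes GABPB1, the partner subunit of the ETS factor GABPA and not an ETS factor itself. Of 15 other MAP kinase genes 0 were called (1 lower unadjusted, 0 by DESeq2), with a median of -0.20. Against tendon 13 genes of the ETS list were lower and 1 higher in muscle, beside 38.6% and 34.5% of all genes, and 10 were lower and 2 higher in the MTJ, beside 34.4% and 32.7%. Examples for muscle over tendon are FLI1 (-1.62 ± 0.17), a factor of vessels and blood cells, ELF4 (-2.79 ± 0.31), EHF (-3.60 ± 0.96) and ETV2 (-2.18 ± 0.69). For MTJ over tendon they are ELF4 (-1.84 ± 0.28), FLI1 (-1.56 ± 0.17), ERG (-1.26 ± 0.18) and ETV6 (-0.84 ± 0.15).

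Of the other MAP kinase genes 11 were higher and 2 lower in muscle over tendon, beside 34.5% and 38.6% of all genes, and 10 were higher and 2 lower in MTJ over tendon, beside 32.7% and 34.4%. MAP2K6, an activator of p38, averaged 99.4 ± 17.1 CPM in the MTJ, 124 ± 15.2 CPM in muscle and 12.4 ± 7.28 CPM in tendon. Its log2 change was 3.43 ± 0.46 for muscle over tendon and 3.11 ± 0.46 for MTJ over tendon (adjusted p = 9.44e-05 and 0.000224, edgeR). MAPK12, the p38 form of muscle, had 2.49 ± 0.41 and 2.24 ± 0.41, and MAPK4 had 2.64 ± 0.64 and 2.01 ± 0.66. MAP2K3, another activator of p38, had 1.80 ± 0.20 for muscle over tendon and MAPK6 1.63 ± 0.17 for MTJ over tendon. The direction of this list depends on the scaling. With library totals alone 4 were higher and 7 lower in each comparison with tendon. The shares of all genes were then 12.4% and 74.1% for muscle over tendon, and 12.8% and 70.5% for MTJ over tendon. The list median was -0.39 for muscle over tendon and -0.25 for MTJ over tendon. That is 0.97 and 0.86 above the median of all genes under that setting.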

How the data were processed

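The authors deposited raw read counts per gene and library (whole numbers, per the file headers and the values), with gene numbers, symbols, chromosomes and lengths. They also deposited log2 values of MTJ over a predicted level, per horse and as a mean, with an FDR, a p-value adjusted by the authors. The submitters' processing notes list EquCab3.0 as the build and DESeq2 1.26.0 as a tool; for the aligner, counter and strand nothing is given in the sources used here, and overlapping genes may share reads. A further 15 columns of transformed values were not used.

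Counts were tested with edgeR 4.0.16 in R 4.3.3 (quasi-likelihood, robust prior, TMM factors of 0.671 to 1.88, terms for tissue and horse, all 15 libraries, Benjamini-Hochberg adjustment); DESeq2 1.42.0 was an alternative. The low-count filter removed 14954 genes and left 15343. SEs are the log2 change over the root of F. The scripts were tested on simulated data. Same-horse libraries are from 1 animal and were blocked: their deviations from tissue means correlated at 0.136 to 0.490 over 15 pairs, and each of the 15 correlated most with a library of its own horse. No libraries were identical. Punches are 1 per horse.

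The genes and lists were chosen with earlier results of these data known, as were the alternatives. Named are the 9 genes, up to 4 called genes with the largest change per pathway list and comparison, the endplate list and the 5 genes most alike; MYC, FLT1, ELF4 and GABPB1 were named after their values were seen; rules on neighbouring genes were not used. Of 173 listed symbols 2 matched no row and 14 failed the filter. Intervals are at 95%. Some results on cascade genes are not reported here.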

Additional observations from a re-analysis of the deposited data

Results flagged for a closer look

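In 3 of 27 groups of 5 libraries the highest or lowest value stood apart from the other 4 by Dixon's 95% limit of 0.71, which chance alone passes in about 1 in 20 groups. MAP2K2 was lowest in the muscle of horse 16, at 11.9 CPM, where the other 4 muscle libraries lay between 13.7 and 14.0 CPM. DUSP6 was highest in the tendon of horse 18, at 332 CPM, the tendon library with the least muscle transcript. SPRY2 was highest in the muscle of horse 20, at 4.52 CPM. MAP2K1, ETV4 and ETV5 had no such library in muscle.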

How the results depend on the processing

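Between MTJ and muscle 947 genes were higher and 85 lower. The count of lower genes was 13 with no replicate block, when horse was dropped from the fit (650 were then higher), and no other call of a tested member but that of ETV5 in MTJ over tendon changed with the block. It was 272 with DESeq2, 137 with RLE factors, 46 with no filter on low counts and 623 once the muscle-rich tendon libraries (horses 14, 16 and 17) were dropped. With only the 2 tissues compared in the fit, 1488 were higher and 1450 lower. Leaving out 1 horse in turn gave 576 to 741 higher and 18 to 40 lower; the cause was not tested. The MAP2K2 call in MTJ over tendon, 1 gene, became 0 with no filter, with only the 2 tissues and without those tendon libraries, and ran from 0 to 1 when 1 horse was left out. With no scaling factors, added after the data were seen, 2358 genes were higher and 12 lower in MTJ over muscle, 1910 and 11368 in muscle over tendon, and 1964 and 10818 in MTJ over tendon, while the tested members numbered 2 higher, 0 higher with 7 lower, and 0 higher with 7 lower. MAP2K2 then reversed to 0.074, -0.75 and -0.68. Further signs turned without a horse: ETV5 in muscle over tendon (0.11 without horse 18 and 0.0034 without horse 20, within -0.61 to 0.11 over the 5 horses) and MAP2K1 in MTJ over tendon (0.11 without horse 14, within -0.45 to 0.11). With no filter the median of all genes was -0.30 in muscle over tendon and -0.24 in MTJ over tendon. MAP2K1 and ETV4 were chosen on the MTJ over muscle change, so its sign under the alternatives supports nothing. Depth limits ETV4 most, at 6 to 18 reads per MTJ library.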
